A study of Homo sapiens with 10 samples.

Results

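The Krüppel-like factors described here are 10 genes of the KLF family, KLF2, KLF3, KLF4, KLF5, KLF6, KLF7, KLF9, KLF10, KLF11 and KLF13, measured by 18 of the 41000 probes and making up 10 of the 28090 named genes on the array. Their probes were found by the gene name in the scanner output. KLF2 was selected on its measured values, for a strong departure of the combined treatment from the sum of the single treatments, so every value of KLF2 is a description with no test, and the tests cover the other 9 genes. The cells were PC-3, an established human prostate cancer line that grows without androgen. Single-color Agilent arrays were hybridised with RNA from cells at 0 h and from cells kept for 24 h with DMSO (the solvent of the drugs), with 60 µM luteolin (a dietary flavonoid), with 60 µM gefitinib (an inhibitor of the EGFR tyrosine kinase) or with 60 µM of each together. Each of the 5 groups had 2 arrays, labelled as biological replicates, and no label says whether they came from separate cultures, so the p-values measure the spread between these arrays.

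For the 6 drug-treated arrays, the scanner files carry another treatment in their names than the sample labels do. The files of the arrays labelled luteolin are named for gefitinib, those labelled gefitinib for the combination, and those labelled luteolin plus gefitinib for luteolin. Groups are called by their labels throughout, and each direction tied to a drug rests on those labels. The array slide is known as well. DMSO replicate 1 shared slide 3 with replicate 1 of each drug-treated group. DMSO replicate 2 shared slide 1 with replicate 2 of luteolin and of luteolin plus gefitinib. Gefitinib replicate 2 lay on slide 2, without a DMSO array. The 0 h arrays lay on slide 2 (replicate 1) and slide 1 (replicate 2). The share of probes well above background ran from 63.4 to 70.4% over the 10 arrays, with 0 saturated spots. The 75th percentile signal, used to scale the arrays, was 1402 and 1177 at 0 h, 1350 and 1283 with DMSO and 1173 and 1041 with luteolin. It was lower with gefitinib (651 and 628) and with luteolin plus gefitinib (865 and 540). The 5 epithelial keratin and adhesion markers checked were well above background on all 10 arrays. So were the blood markers CD3E and CD14, while COL1A1 and COL3A1 of the fibroblast markers were on 9. With DMSO the epithelial markers summed to 12000 to 13500% of the array's 75th percentile signal, and the blood markers to 8.83 to 9.75%. KLK3, listed as low or absent in PC-3, was also well above background on all 10, at log2 3.38 to 5.14 over that percentile.

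Krüppel-like factors are transcription factors whose carboxy-terminal zinc fingers bind GC-rich and CACCC elements, while their amino-terminal parts differ and recruit either coactivators or corepressors. KLF2 is best known from endothelial cells and T cells, where fluid shear and the MEK5, ERK5 and MEF2 cascade or FOXO factors raise its transcription. KLF5 promotes the growth of epithelial cells, KLF6 has been described as a growth suppressor in prostate epithelium, and KLF10 and KLF11 were found as genes that TGF-β induces.

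Of the 10 genes, 8 matched a promoter window of the RefSeq table (GRCh38.p14, 250 bases before to 50 after the start of a transcript), with 13 windows in all, and KLF3 and KLF10 did not. The bases before the start are shown for KLF2, the gene chosen for its departure from additivity, and for KLF6, the gene with the largest rise, with capitals for the MEF2 consensus and for GGGCGG on either strand, which do not overlap each other in these sequences.
KLF2, chr19:16324576-16324825, + strand: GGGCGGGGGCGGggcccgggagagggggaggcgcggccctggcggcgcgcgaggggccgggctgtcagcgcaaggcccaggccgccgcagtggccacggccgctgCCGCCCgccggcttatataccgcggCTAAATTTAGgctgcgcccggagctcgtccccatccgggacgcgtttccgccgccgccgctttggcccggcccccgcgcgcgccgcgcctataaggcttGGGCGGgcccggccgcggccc
KLF6, chr10:3785210-3785459, - strand: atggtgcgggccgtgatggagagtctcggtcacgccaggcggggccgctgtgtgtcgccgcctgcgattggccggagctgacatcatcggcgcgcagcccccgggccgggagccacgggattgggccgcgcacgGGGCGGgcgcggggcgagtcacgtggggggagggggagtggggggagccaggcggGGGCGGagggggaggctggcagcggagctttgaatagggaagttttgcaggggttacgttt

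The MEF2 consensus occurred once in the KLF2 window, 120 to 111 bases before the start, and in 0 of the other members' windows; 2.99% of all 35116 windows in the table held it. GGGCGG, the core of the GC box that SP and KLF proteins bind, was in 8 of the 13 windows, of 7 genes, against 45.0% of all windows, and CACCC was in 7 windows, of 4 genes (KLF5, KLF7, KLF11 and KLF13), against 59.9%. The cyclic AMP response element TGACGTCA was found in 1 window, of KLF11 (1.85% of all windows), and the forkhead core GTAAACA in 0 member windows (3.42%). All motifs were searched on both strands, and a match is a description of the letters and not a site of binding.

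On its brighter probe KLF2, a transcription factor of quiescent endothelium and T cells, was high on the arrays of either drug alone. On the arrays of the combination it was lower, and above the controls only after scaling. All levels are log2 signals scaled to each array's 75th percentile. On the brighter KLF2 probe (chr19:16299246-16299305, hg18) the levels were -1.64 and -2.0 at 0 h and -1.76 and -1.94 with DMSO. They were 0.52 and 2.12 with luteolin, 1.60 and 0.59 with gefitinib, and -0.87 and -0.90 with luteolin plus gefitinib. Every single-drug array lay above every combination array, and every combination array above every control array. By group mean ± SD (n = 2) the order was luteolin (1.32 ± 1.13), gefitinib (1.10 ± 0.71), luteolin plus gefitinib (-0.89 ± 0.02), 0 h (-1.82 ± 0.25) and DMSO (-1.85 ± 0.12), where luteolin and gefitinib overlapped and so did 0 h and DMSO. Before scaling, the signals on this probe were 448.5 and 294.4 at 0 h, 397.8 and 335.4 with DMSO and 471.5 and 288.4 with the combination. The combination arrays thus overlapped the controls before scaling. The unscaled single-drug signals, 1685 and 4520 with luteolin and 1972 and 948.5 with gefitinib, lay above all of these. In bulk samples, fewer expressing cells and less RNA per cell cannot be told apart.

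Against DMSO the log2 changes of KLF2 were 3.17 ± 0.49 (SE) with luteolin, 2.95 ± 0.49 with gefitinib and 0.96 ± 0.49 with luteolin plus gefitinib, or 9.0-, 7.71- and 1.94-fold. The combination thus stood 5.16 ± 0.69 below the sum of the single changes on the log2 scale. Within slide 3, which held 1 array of DMSO and 1 of each drug-treated group, the departure was -4.76. With the treatments carried by the file names it was -1.18, since the low arrays then are those of luteolin alone (0.96) and the arrays of gefitinib (3.17) and of the combination (2.95) are both high.

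The other KLF2 probe did not show this pattern. It starts 2042 bases before the first on hg18 (chr19:16297204-16297263), and exon positions on that build were not used here. Its levels were -4.96 and -5.32 at 0 h, -5.51 and -5.48 with DMSO and -4.81 and -4.89 with luteolin. They were -4.22 and -3.82 with gefitinib and -4.31 and -4.17 with luteolin plus gefitinib. Here the gefitinib and combination arrays overlapped and lay above the luteolin arrays, and all 6 drug-treated arrays lay above the 4 control arrays. The log2 changes against DMSO were 0.64, 1.47 and 1.25 (SE 0.19 each), and the departure from additivity was -0.86 ± 0.27. Scaled levels above DMSO with each drug were therefore seen on both probes, while a departure of that size was seen on the brighter probe alone. The other probe was dim, with unscaled signals of 45.1 and 29.6 at 0 h and 29.7 and 28.8 with DMSO. They were 41.8 and 35.1 with luteolin, 35.0 and 44.4 with gefitinib and 43.6 and 29.9 with the combination. Before scaling, the drug-treated arrays thus overlapped those at 0 h on this probe.

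**Figure D1:**
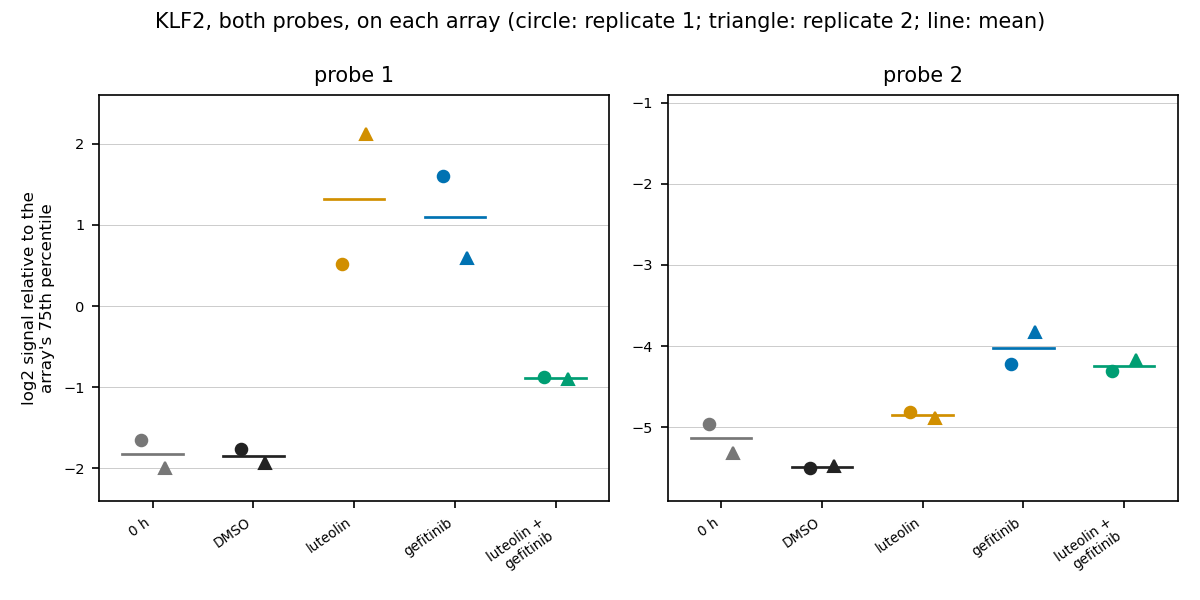
Level of KLF2 on each array, by probe: log2 signal over the 75th percentile of its array (y) for the 5 labelled groups (x), with a circle for replicate 1, a triangle for replicate 2 and a line for the mean; both panels span the same number of log2 units. On probe 1 the single-drug arrays (0.52 to 2.12) lie far above the combination arrays (-0.90 and -0.87), and on probe 2 the combination arrays (-4.31 and -4.17) lie among or beside the gefitinib arrays.

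Endothelial markers were mostly not detected, so whether endothelial genes followed KLF2 cannot be read from them. Of 4 endothelial markers, TEK and VWF were well above background on 0 of 10 arrays, CDH5 on 1 and PECAM1 on 10. Their summed signal, as a percent of the array's 75th percentile signal, was 8.55 to 19.8% at 0 h and 7.5 to 11.6% with DMSO. It was 14.4 to 26.9% with luteolin, 8.38 to 9.42% with gefitinib and 6.97 to 10.6% with luteolin plus gefitinib. The part of endothelial genes in the KLF2 values was not tested.

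The genes whose levels followed KLF2 most closely over the 10 arrays, among 16272 genes well above background on all of them, were GPR108 (r = 0.97), SNHG11 (0.96), HSPA6 (0.96), WARS1 (0.959) and LARP1B (0.958). This is a description over arrays that share their groups, and many genes were searched. HSPA6, a stress-inducible heat shock protein, was the one with changes of a size like those of KLF2. It had levels of -3.22 and -3.78 with DMSO, -1.0 and -0.66 with luteolin, -0.29 and -0.92 with gefitinib and -2.71 and -3.22 with luteolin plus gefitinib. Its departure from additivity was -5.03. WARS1, the tryptophanyl-tRNA synthetase, moved less, by 0.78, 0.75 and 0.37 against DMSO. Among the other KLF genes the correlation with KLF2 was 0.91 for KLF7, 0.79 for KLF6, 0.68 for KLF11 and 0.51 for KLF3, and between -0.28 and 0.16 for the other 5.

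Of the 9 genes tested, 8 were called against DMSO in at least 1 drug-treated group, where 47.2% of all 19718 genes were; a call is an adjusted p under 0.05 in limma and a change of at least 2-fold. With luteolin 5 were raised (KLF4, KLF6, KLF7, KLF11 and KLF13) and 0 lowered, where 7.2% of all genes were raised and 6.17% lowered. With gefitinib 3 were raised (KLF6, KLF7 and KLF10) and 3 lowered (KLF4, KLF5 and KLF13), where 15.6% of all genes were raised and 14.3% lowered. With luteolin plus gefitinib 3 were raised (KLF3, KLF6 and KLF7) and 0 lowered, where 12.1% of all genes were raised and 7.69% lowered. The share of raised genes among all genes called moved with the scaling, from 52.3% to 40.2% (quantile) or 66.3% (normexp) with gefitinib and from 61.1% to 44.8% or 71.3% with the combination. Over the 8 tested genes other than KLF9, which was near background, the median log2 change was 1.36, 0.58 and 0.64 in the order above, beside 0.08, 0.22 and 0.16 over all genes. By the treatments of the file names the counts were 3 raised and 0 lowered with luteolin, 5 and 0 with gefitinib and 3 and 3 with the combination.

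**Figure D2:**
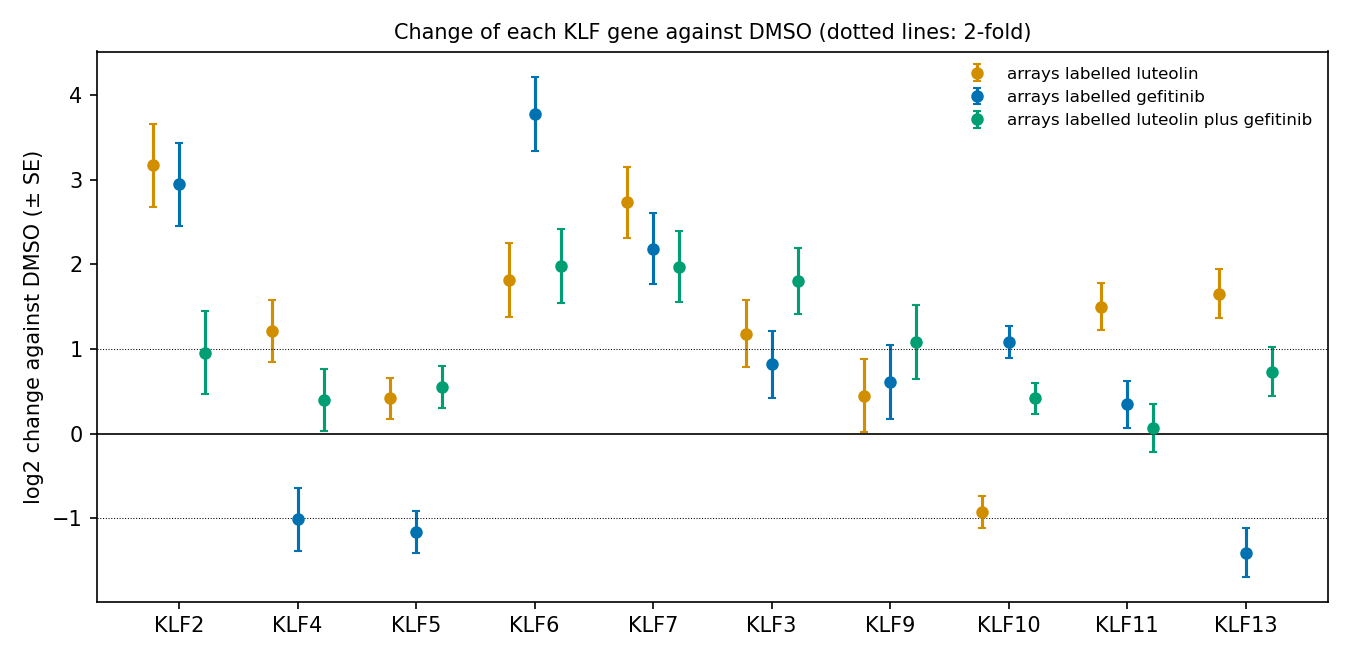
Log2 change against DMSO (y, ± SE from limma) of the 10 KLF genes (x) for the 3 drug-treated groups as labelled, each gene by its brightest probe; the dotted lines mark a 2-fold change. KLF6 and KLF7 lie above the upper line in all 3 groups, and KLF4, KLF5 and KLF13 lie below the lower line with gefitinib and above 0 in the other groups; KLF9 was near background.

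KLF6, a zinc-finger activator and growth suppressor, rose in every drug-treated group, and most with gefitinib. On its brightest probe (chr10:3811387-3811446, hg18) the levels were 1.83 and 2.36 at 0 h, 2.60 and 2.45 with DMSO, 3.99 and 4.69 with luteolin, 6.55 and 6.05 with gefitinib and 3.82 and 5.19 with luteolin plus gefitinib. All drug-treated arrays lay above all control arrays, and the gefitinib arrays above every other array. The log2 changes against DMSO were 1.81 ± 0.44 (adjusted p = 0.019), 3.78 ± 0.44 (0.000504) and 1.98 ± 0.44 (0.0102), a 3.52-, 13.7- and 3.96-fold rise, and with quantile scaling the gefitinib change was 3.13. KLF6 was lower with luteolin than with gefitinib by 1.97 (adjusted p = 0.00545), and lower with the combination than with gefitinib by 1.80 (0.0107). The luteolin call was lost without DMSO replicate 1 (adjusted p = 0.0789), DMSO replicate 2 (0.0973) or luteolin replicate 2 (0.132), and the combination call without DMSO replicate 2 (0.0585).

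The other 3 KLF6 probes gave gefitinib the largest change too. The probe at chr10:3811779-3812353 changed by 2.07, 4.35 and 2.41 against DMSO, and all 3 changes were called. A dimmer probe (chr10:3808811-3808870) was well above background on both arrays of each drug-treated group and on 0 of the 4 control arrays. On that probe KLF6 was at least 4.8-fold higher with luteolin, 33.4-fold with gefitinib and 5.61-fold with the combination than with DMSO. Each dim array was counted at no less than its lowest signal well above background. The probe passed the filter on dim probes only through the groups where it was high, so no test is given for it. The remaining probe (chr10:3808418-3808477) changed by 0.93 (adjusted p = 0.232), 1.73 (0.0233) and 0.77 (0.259). Within slide 3 the changes on the brightest probe were 1.39, 3.95 and 1.22, and within slide 1 they were 2.24 with luteolin and 2.74 with the combination.

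KLF7, an activator best known from neuronal development, rose to a similar extent in all 3 drug-treated groups. Its levels (chr2:207653813-207653872, hg18) were -4.82 and -4.64 at 0 h, -5.04 and -5.15 with DMSO, -2.91 and -1.81 with luteolin, -2.32 and -3.49 with gefitinib and -3.21 and -3.04 with luteolin plus gefitinib. The drug-treated arrays all lay above the control arrays and the 3 drug-treated groups overlapped each other, apart from luteolin, which lay above the combination. The changes against DMSO were 2.74 ± 0.42 (adjusted p = 0.00312), 2.19 ± 0.42 (0.00383) and 1.97 ± 0.42 (0.00882). The differences between the drug-treated groups did not pass the test, at 0.55 (95% interval -0.41 to 1.51) for luteolin against gefitinib and -0.77 (-1.73 to 0.19) for the combination against luteolin. The call with the combination was lost without DMSO replicate 2 (adjusted p = 0.0531). With normexp the changes of this dim probe were smaller, at 1.63, 1.5 and 1.3, and still called. Within slide 3 the changes were 2.13, 2.71 and 1.83, and within slide 1 they were 3.34 with luteolin and 2.11 with the combination.

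KLF6 and KLF7 were also the 2 tested genes called in all 3 drug-treated groups against 0 h, both raised, where 1.2% of all genes were raised and 0.964% lowered in all 3. DMSO itself moved 0 of the 9 genes in limma, with 0 at an unadjusted p under 0.05, where 0.0203% of all genes were raised and 0.0101% lowered.

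KLF4, which acts in epithelial differentiation and is 1 of the factors used to reprogram cells, moved in opposite directions with the single drugs. Its levels (chr9:109287870-109287929, hg18) were -1.55 and -1.18 at 0 h, -1.41 and -1.35 with DMSO, -0.48 and 0.15 with luteolin, -1.81 and -2.97 with gefitinib and -0.85 and -1.10 with luteolin plus gefitinib. The luteolin arrays lay above and the gefitinib arrays below all others. The change was 1.21 ± 0.37 with luteolin (adjusted p = 0.0432), -1.01 ± 0.37 with gefitinib (0.0455) and 0.40 ± 0.37 with the combination (0.399). Both calls were close to the threshold and were lost with quantile scaling (1.16, adjusted p = 0.0503, and -0.94, 0.0665), and the gefitinib change was under 2-fold with normexp (-0.61). The luteolin call was lost without any 1 of the arrays other than those of gefitinib (adjusted p from 0.0513 to 0.245). The gefitinib call was lost without any 1 of the 0 h, DMSO or combination arrays (0.0578 to 0.145) or without gefitinib replicate 2, where the change was -0.43 (0.263). Gefitinib replicate 2 was also the array without DMSO on its slide, and with slide as a block the gefitinib change was -0.63 (0.151). The direct contrasts had smaller adjusted p, with KLF4 2.22 ± 0.37 higher with luteolin than with gefitinib (adjusted p = 0.00136) and 1.42 ± 0.37 higher with the combination than with gefitinib (0.0139).

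KLF5, a promoter of epithelial growth, fell with gefitinib and was near the control level otherwise. Its levels (chr13:72548980-72549039, hg18) were 1.77 and 1.65 at 0 h, 1.52 and 1.60 with DMSO, 1.92 and 2.04 with luteolin, 0.69 and 0.10 with gefitinib and 2.39 and 1.83 with luteolin plus gefitinib. Both gefitinib arrays lay below the other 8. The change was -1.16 ± 0.25 with gefitinib (adjusted p = 0.00555), 0.42 ± 0.25 with luteolin (0.253) and 0.55 ± 0.25 with the combination (0.104). KLF5 stood 1.71 ± 0.25 higher with the combination than with gefitinib (adjusted p = 0.000888). The second probe gave -1.0 with gefitinib (adjusted p = 0.0135), just under 2-fold, and without gefitinib replicate 2 the first probe also gave less than 2-fold (-0.87, adjusted p = 0.038). Within slide 3 the gefitinib change was -0.83.

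KLF3, a repressor that recruits the corepressor CtBP, rose with the combination. On the brighter probe (chr4:38378913-38378972, hg18) the levels were -0.35 and -0.29 at 0 h, -0.48 and -0.40 with DMSO, 0.51 and 0.97 with luteolin, 0.99 and -0.22 with gefitinib and 0.98 and 1.75 with luteolin plus gefitinib. The gefitinib arrays lay far apart, 1 at the level of the higher luteolin array and 1 just above the controls, and all drug-treated arrays lay above all control arrays. The change was 1.80 ± 0.39 with the combination (adjusted p = 0.00964), 1.18 ± 0.39 with luteolin (0.0588) and 0.82 ± 0.39 with gefitinib (0.109). The dimmer probe (chr4:38375160-38375219) gave 1.70 (0.00673), 2.01 (0.00431) and 0.10 (0.816), so luteolin was called on that probe and gefitinib on neither. The combination call on the brighter probe was lost without DMSO replicate 1 (adjusted p = 0.0534), DMSO replicate 2 (0.0501) or luteolin plus gefitinib replicate 2 (0.0619). The luteolin change was called without gefitinib replicate 1 or without gefitinib replicate 2 (lowest adjusted p = 0.0188) and with normexp (1.09, 0.0242), and the gefitinib change without gefitinib replicate 2 (1.43, adjusted p = 0.0137) and with slide as a block (1.19, 0.0481).

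KLF13, which binds the SIN3A corepressor and is known as a regulator of CCL5 in T cells, had the widest difference between the single drugs among the 9 genes. Its levels (chr15:29457200-29457259, hg18) were 1.70 and 2.28 at 0 h, 1.94 and 2.0 with DMSO, 3.44 and 3.81 with luteolin, 0.94 and 0.19 with gefitinib and 2.76 and 2.65 with luteolin plus gefitinib. The luteolin, combination, control and gefitinib arrays followed each other in this order without overlap. The change was 1.66 ± 0.29 with luteolin (adjusted p = 0.00504), -1.40 ± 0.29 with gefitinib (0.00487) and 0.74 ± 0.29 with the combination (0.0701). The luteolin and gefitinib arrays differed by 3.06 ± 0.29 (adjusted p = 0.000125), or 8.34-fold. The second KLF13 probe moved likewise, by 1.59, -1.02 and 0.74 (adjusted p = 0.00278, 0.00823 and 0.0376). Within slide 3 the first probe changed by 1.5, -1.0 and 0.82.

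KLF10, a TGF-β-inducible repressor that binds SIN3A, lay above DMSO with gefitinib and below it with luteolin, the reverse of KLF13, while with the combination neither gene was called. Its levels were 2.59 and 2.46 at 0 h, 2.54 and 2.39 with DMSO, 1.69 and 1.39 with luteolin, 3.57 and 3.52 with gefitinib and 2.70 and 3.07 with luteolin plus gefitinib. The gefitinib arrays lay above and the luteolin arrays below all others. The change was 1.08 ± 0.19 with gefitinib (adjusted p = 0.0026) and -0.92 ± 0.19 with luteolin (0.00942), which is under 2-fold, and 0.42 ± 0.19 with the combination (0.104). The gefitinib change fell under 2-fold with quantile scaling (0.65) and with normexp (0.92). Without luteolin replicate 1 the luteolin fall passed 2-fold as well (-1.08). KLF10 was 2.01 ± 0.19 lower with luteolin than with gefitinib (adjusted p = 0.000123) and 1.34 ± 0.19 higher with the combination than with luteolin (0.0015).

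KLF11, a relative of KLF10 known as a diabetes gene of the pancreatic islet, rose with luteolin. Its levels (chr2:10112097-10112156, hg18) were -0.59 and -0.77 at 0 h, -1.18 and -1.21 with DMSO, 0.01 and 0.60 with luteolin, -0.46 and -1.23 with gefitinib and -1.19 and -1.06 with luteolin plus gefitinib. The luteolin arrays lay above all others, and the combination arrays lay at the level of DMSO. The change was 1.5 ± 0.28 with luteolin (adjusted p = 0.00686), 0.35 ± 0.28 with gefitinib (0.318) and 0.07 ± 0.28 with the combination (0.855), and the combination was 1.43 ± 0.28 below luteolin (0.00552). The luteolin call was lost without luteolin replicate 2 (adjusted p = 0.0576). The second probe gave 1.38, 1.04 and 0.25 (0.0177, 0.0278 and 0.564), so the gefitinib rise was called on that probe alone.

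KLF9, a SIN3A-binding repressor induced by glucocorticoids and thyroid hormone, was at the edge of detection. Its probe (chr9:72189657-72189716, hg18) was well above background on 4 of 10 arrays, namely both at 0 h, DMSO replicate 1 and luteolin plus gefitinib replicate 1, and it passed the filter on dim probes through 0 h. The levels ran from -6.88 to -5.12. KLF9 was called in 0 comparisons of limma, with adjusted p of 0.491, 0.262 and 0.0763 against DMSO, and no fold is given for it with either single drug. Without DMSO replicate 1 the only DMSO array left was not well above background, so the values of that alternative are not read.

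**Figure D3:**
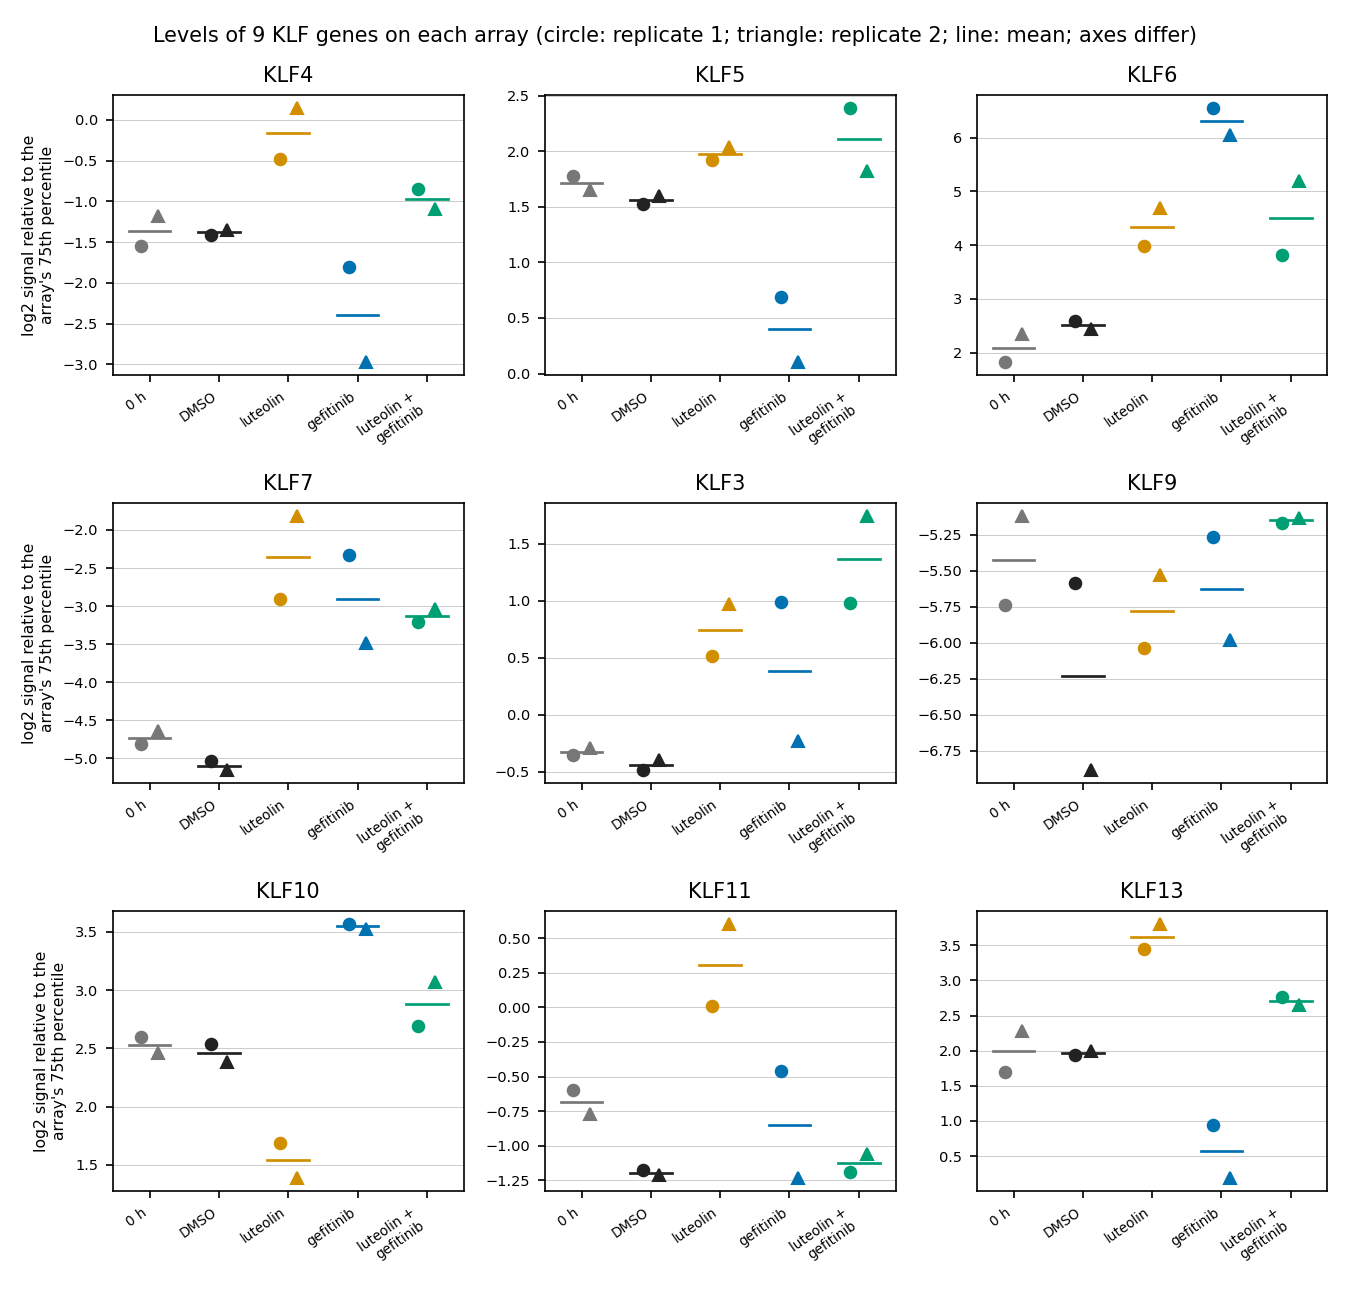
Level of the 9 tested KLF genes on each array: log2 signal over the 75th percentile of its array (y, a separate scale in each panel) for the 5 labelled groups (x), with a circle for replicate 1, a triangle for replicate 2 and a line for the mean. KLF6 and KLF7 lie above the controls in every drug-treated group, KLF4, KLF5 and KLF13 are lowest with gefitinib, and KLF10 is highest with gefitinib (3.57 and 3.52) and lowest with luteolin (1.69 and 1.39).

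Compared directly, luteolin and gefitinib gave 4 genes a higher level with luteolin (KLF4, KLF5, KLF11 and KLF13) and 2 a lower one (KLF6 and KLF10), where 18.1% of all genes were higher and 18.5% lower. Between the combination and luteolin 1 was higher (KLF10) and 1 lower (KLF11), where 11.3 and 9.75% of all genes were. Between the combination and gefitinib 3 were higher (KLF4, KLF5 and KLF13) and 1 lower (KLF6), where 17.2 and 9.76% of all genes were. For KLF4, KLF5 and KLF13, the combination thus stood nearer to luteolin than to gefitinib.

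The departure of the combination from the sum of the single changes was negative for KLF6 (-3.61 ± 0.62 SE), KLF7 (-2.95 ± 0.59) and KLF11 (-1.78 ± 0.40), as it was for KLF2, and positive for KLF5 (1.29 ± 0.35). For KLF3, KLF4, KLF10 and KLF13 it lay between -0.20 and 0.48, and for KLF9, near background, no departure is read. Over all 19718 genes the median was -0.16, with -2.52 at percentile 1 and 3.50 at percentile 99. The 3 KLF6 probes well above background in every group ranged from -4.0 to -1.88. These values are given with no test, and the choice of treatment names decides most of them: with the file names KLF6 was at -0.02, KLF13 at -3.80, KLF4 at -2.63, KLF5 at -2.13, KLF3 at -2.16 and KLF10 at 1.59. KLF7 (-2.52) and KLF11 (-1.22) stayed negative under both.

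**Figure D4:**
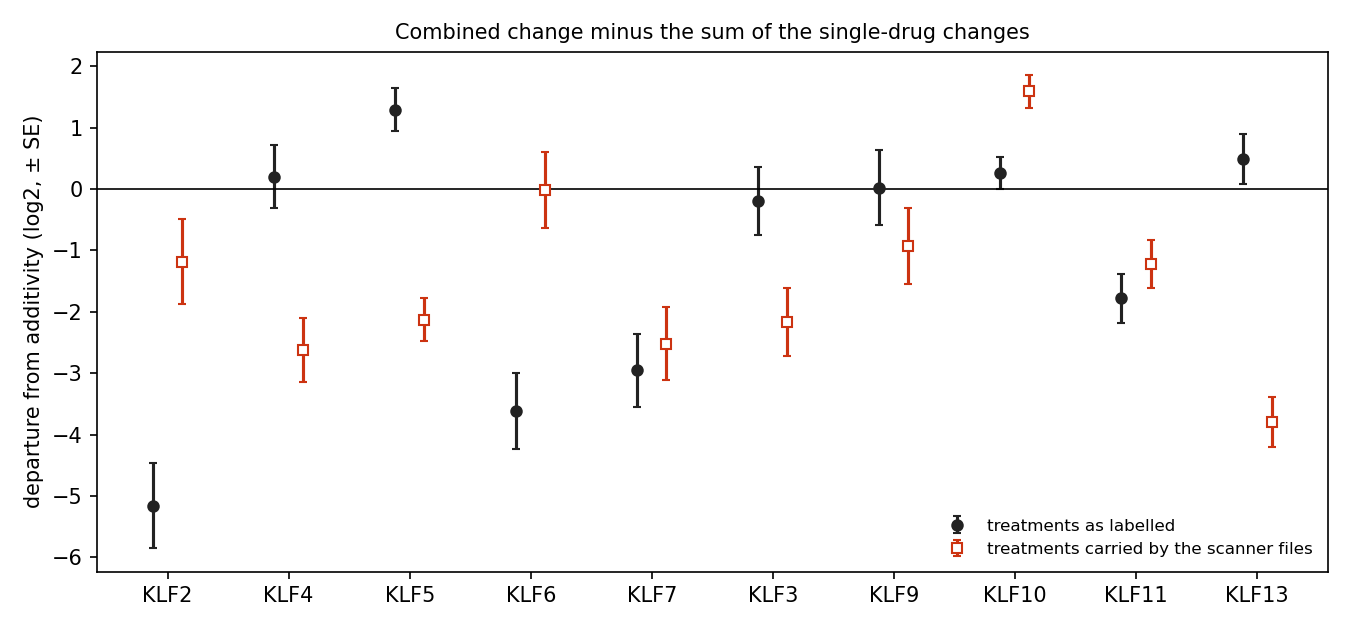
Departure from additivity (y, log2 change of the combination minus the sum of the single-drug changes, ± SE) of the 10 KLF genes (x), with filled circles for the treatments as labelled and open squares for those carried by the scanner files. KLF2 is at -5.16 as labelled and at -1.18 by file name, and KLF13 at 0.48 and -3.80.

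Among the other KLF and SP genes, 14 of 16 were on the array, 8 passed the filter and 4 were called against DMSO in at least 1 drug-treated group, where 47.2% of all genes were. SP5, a target and repressor in WNT signaling, rose with gefitinib (1.73 ± 0.37, adjusted p = 0.00559) and with the combination (1.25 ± 0.37, 0.0272). KLF16, a GC-box repressor, rose with gefitinib (1.32 ± 0.37, 0.0171), and KLF12, a CtBP-binding repressor, with luteolin (1.09 ± 0.20, 0.00654). SP1, the broadly expressed GC-box activator, fell with gefitinib (-1.18 ± 0.19, 0.00202), from -0.91 and -0.76 with DMSO to -2.24 and -1.79. The list's median change was 0.24, 0.08 and 0.47 with luteolin, gefitinib and the combination, beside 0.08, 0.22 and 0.16 over all genes.

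Of 14 cofactors and ubiquitin ligases of KLF proteins, all tested, 4 were called in at least 1 group, all lowered, beside 47.2% of all genes called in either direction. By group, 0 were raised and 1 lowered with luteolin, 0 and 3 with gefitinib and 0 and 0 with the combination. Over all genes the raised and lowered shares were 7.2 and 6.17%, 15.6 and 14.3%, and 12.1 and 7.69%. SIN3A, the corepressor that KLF9, KLF10, KLF11 and KLF13 bind, fell with gefitinib (-1.35 ± 0.19, adjusted p = 0.00114), from -0.18 and -0.12 with DMSO to -1.52 and -1.48. Its paralog SIN3B fell with luteolin (-1.30 ± 0.25, 0.00798). The acetyltransferase EP300 (-1.34 ± 0.44, 0.0321) and the F-box protein BTRC (-1.11 ± 0.16, 0.00129) fell with gefitinib. The EP300 levels were -1.34 and -1.15 with DMSO and -1.77 and -3.40 with gefitinib. Most of its fall was thus on gefitinib replicate 2, the array without DMSO on its slide. The list's median change was 0.09, 0.02 and -0.16 with luteolin, gefitinib and the combination.

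Of 11 genes upstream of KLF2 and KLF4, the MEK5 and ERK5 cascade with its MEF2 targets, the FOXO factors and EGFR, 7 were called in at least 1 group, beside 47.2% of all genes. FOXO4 rose with luteolin by 1.86 ± 0.21 (adjusted p = 0.00106) and FOXO1 by 1.10 ± 0.27 (0.0193), while FOXO1 fell with gefitinib by 1.22 ± 0.27 (0.00653). MEF2D rose with gefitinib (1.27 ± 0.26, 0.00461), and MAP3K3, the kinase at the head of the ERK5 cascade, fell (-1.26 ± 0.21, 0.00246). By group, 2 of the 11 were raised and 0 lowered with luteolin, 1 and 2 with gefitinib and 1 and 2 with the combination. Over all genes the raised and lowered shares were 7.2 and 6.17%, 15.6 and 14.3%, and 12.1 and 7.69%. The list's median change was 0.39, -0.18 and -0.15, beside 0.08, 0.22 and 0.16 over all genes.

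Of 19 described KLF targets, all on the array, 12 were tested and 7 called in at least 1 group, beside 47.2% of all genes. CDKN1A, the cell cycle inhibitor p21, which KLF4 and KLF6 are known to induce, was the 1 list gene raised in all 3 drug-treated groups, by 1.97 ± 0.33, 1.37 ± 0.33 and 1.66 ± 0.33 (adjusted p = 0.00458, 0.00974 and 0.00724). CDKN1C, the inhibitor p57, had levels of 0.69 and 0.88 with DMSO, 2.42 and 2.83 with luteolin, 2.61 and 2.71 with gefitinib and 0.82 and 0.77 with the combination. It was thus raised with each drug alone (1.84 ± 0.25 and 1.88 ± 0.25, adjusted p = 0.00188 and 9e-04), and its change with the combination was 0.01 ± 0.25. BIRC5, the inhibitor of apoptosis survivin, fell with luteolin (-2.11 ± 0.21, 0.000761). S1PR1, the lymphocyte egress receptor that KLF2 activates in T cells, was not well above background with gefitinib and at least 1.21-fold lower there than with DMSO (adjusted p = 0.0415). NOS3, the endothelial nitric oxide synthase that KLF2 induces in endothelium, was named after its values were seen and rose with gefitinib (1.43 ± 0.25, adjusted p = 0.0026) and with the combination (1.13 ± 0.25, 0.00946). EDN1 and PDGFA were named in the same way. EDN1 fell with luteolin (-1.12 ± 0.33, adjusted p = 0.0375) and rose with the combination (1.20 ± 0.33, 0.0215). PDGFA rose with luteolin (1.23 ± 0.33, adjusted p = 0.0262) and fell with gefitinib (-1.35 ± 0.33, 0.00939). The list's median change was 0.50, 0.72 and 0.59 with luteolin, gefitinib and the combination. All 4 lists were chosen with earlier results of these arrays known.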

How the data were processed

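As deposited by the authors, the intensity of each spot is the processed signal of Agilent Feature Extraction (version 10.7.3.1 per the file headers; the methods name another version), with background and spatial trend subtracted within the array and no scaling between arrays. The series' table of values equals it for 45015 of 45015 spots, within a relative tolerance of 1e-04. Control spots were left out, and so were outlier spots, apart from 37 probe values. There all spots of the probe on the array were outliers, and their mean was used. Intensities were put on a log2 scale relative to the array's 75th percentile over all non-control spots, whereas the deposited values are linear. A probe was kept where some group had it well above background on each of its 2 arrays (28776 of 41000, 19718 genes), and a gene was represented by its brightest probe. Signal over background sets the depth, and 2 arrays a group limit the precision.

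All 10 arrays were fitted with limma 3.58.1 in R 4.3.3 with the 5 groups (5 residual and 3.35 prior degrees of freedom), and p-values were adjusted by Benjamini-Hochberg over all kept probes. A call needed a change of at least 1 on the log2 scale with an adjusted p under 0.05. The analysis was tested on simulated arrays. The methods name the Subio software and a 1-sample test of folds; the methods' t-test against 0 h was an alternative, with other background corrections, scalings, filters, probes, blocks and treatment names. The members, lists and named genes (all members, up to 4 called genes of each list with the largest change, and the 5 genes most like KLF2) were chosen with earlier results of these data known. NOS3, EDN1 and PDGFA were added to the named genes after their values were seen. Promoter sequences are from RefSeq, GRCh38.p14, and probe coordinates from the scanner files, hg18.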

Additional observations from a re-analysis of the deposited data

How the results depend on the processing

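With 2 arrays a group, single arrays decided several calls. When 1 array was left out at a time, the lone array of its group was assumed to vary like the others. The number of KLF genes called then ran from 2 to 6 for luteolin against DMSO (lowest without luteolin replicate 2, and 3 without DMSO replicate 1 or 2), 5 to 6 for gefitinib, 0 to 3 for the combination (0 without DMSO replicate 2) and 0 to 0 for DMSO against 0 h. It ran from 5 to 7 for luteolin against gefitinib, 2 to 2 for the combination against luteolin, 2 to 4 for the combination against gefitinib (2 without luteolin plus gefitinib replicate 1), and 0 to 3 for all 3 drug-treated groups against 0 h (0 without 0 h replicate 1, and 1 without 0 h replicate 2, luteolin replicate 2 or luteolin plus gefitinib replicate 2). The KLF2 departure ran from -5.95 to -4.36. Called list genes ran from 2 to 5 for the cofactors (2 without DMSO replicate 1 or 2), 6 to 9 for the targets, 3 to 4 for the other KLF and SP genes and 5 to 9 for the upstream genes. Changes that crossed 0 were those of KLF9, which was near background, with luteolin (-0.20 to 1.10) and gefitinib (-0.040 to 1.26) and of KLF11 with gefitinib (-0.039 to 0.73).

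By the file-name treatments, KLF genes called numbered 3 for luteolin, 6 for the combination, 2 for luteolin against gefitinib and 4 for the combination against luteolin, and the KLF2 departure was -1.18. Reversed against DMSO were KLF10 with luteolin (0.42), KLF4 (1.21), KLF5 (0.42), KLF10 (-0.92) and KLF13 (1.66) with gefitinib, and KLF4 (-1.01), KLF5 (-1.16) and KLF13 (-1.40) with the combination. The median over a gene's probes gave a KLF2 departure of -3.01, and the other KLF2 probe, an alternative chosen after seeing the data, -0.86. With normexp 2 cofactors were called, and with no minimum fold 11 cofactors and 12 targets. The genes called against 0 h in all 3 drug-treated groups numbered 1 with slide as a block and 0 by the methods' t-test, both unadjusted and after Benjamini-Hochberg, where limma called 2. The cause of these shifts was not tested. The median change of all genes against DMSO moved from 0.08, 0.22 and 0.16 to 0.04, 0.05 and 0.00 with quantile scaling and to 0.11, 0.37 and 0.29 with normexp. Of the single-gene changes under an alternative, 472 kept their direction and their call or lack of one, 40 lost the call, 14 gained it and 11 reversed. Signal over background limits KLF9.

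Arrays with the same replicate number deviated together in 6 of 10 pairs of groups (r over 0.1, range -0.092 to 0.286), so the numbers were not taken as pairs. With the replicate block, 4 KLF genes were called with luteolin (5 without it) and 5 with gefitinib (6 without it), and KLF4 lost both calls.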
